A study of Rattus norvegicus with 20 samples.

Results

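The genes described here serve the cell's defence against oxidants. They are the transcription factor NRF2 with its regulators, and enzymes of detoxification, haem and iron handling, glutathione, thioredoxin, the pentose phosphate pathway, and catalase with the superoxide dismutases. They were chosen by symbol for their function, with earlier results of these data known. The list held 44 genes, and all 44 were among the 17337 symbols of the count table. Of the 44, 41 had enough counts to be tested, out of 8320 genes tested in the whole table. Transcripts were counted by QuantSeq, which reads mRNA near the 3' end, in primary alveolar type II cells of Sprague-Dawley rats, cultured for 4 days on fibronectin-coated silastic membranes, where they become type I-like. There were 20 libraries, 5 per group, and each pooled 4 monolayers of 1 animal. The replicate number was taken as the animal, so that every animal gave a library to every group; the labels do not state this, but same-numbered libraries resembled each other. Unstretched control cells (NS) received 0.01% DMSO for 24 h. Stretched cells (S) received the same DMSO for 18 h before 6 h of biaxial strain, with a surface area change of 25% at 15 cycles per minute. Unstretched inhibitor cells (NS_PI) received 1 µM of the PERK inhibitor GSK2606414 for 24 h, and stretched inhibitor cells (S_PI) for 18 h before the same 6 h of strain. The labels give no vehicle for the inhibitor groups and no sex or age for the rats, and the pneumocytes of each animal are a mixed primary isolate rather than a line.

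NRF2, encoded by Nfe2l2, is normally held back by KEAP1, which hands it to a CUL3 ubiquitin ligase for degradation. Oxidants and electrophiles modify KEAP1, and NRF2 then enters the nucleus, pairs with a small MAF protein and binds antioxidant response elements in front of genes for glutathione synthesis, thioredoxin reduction, quinone reduction, haem breakdown and iron storage. In the lung this pathway is known for protecting the alveolar lining against inhaled oxidants and high oxygen. PERK, the target of the inhibitor, is a kinase of the endoplasmic reticulum that acts through the translation factor eIF2α and the transcription factor ATF4, and it has been reported to phosphorylate NRF2 as well. Cth, Slc7a11 and Chac1, which act on cysteine and glutathione, are known targets of ATF4.

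The core of the antioxidant response element can be written TGACNNNGC. It was searched on both strands in the RefSeq promoters of rat build GRCr8, each running from 250 bases before to 50 bases after the gene's start. It was found in 11 of the 38 members with an entry (28.9%), counting a gene with a match in any of its promoters. Counted in the same way it was found in 13.1% of all 27457 genes with an entry and in 15.8% of the 6404 tested ones, and per promoter in 12.1% of all 33469 of that length. Txnrd1 and Ephx1 each have 2 promoters in the table, of which 1 holds a match. The 11 were Nfe2l2, Ephx1, Blvra, Gclm, Gpx2, Gstp1, Txnrd1, Prdx1, Prdx4, Prdx5 and Sod2. The 6 below are shown because they hold the members with a match that changed with stretch (Txnrd1, Prdx5, Gpx2), a subunit gene that did not pass the test (Gclm), and the matches in Prdx1 and Gstp1 that overlap an AP-1 site TGANTCA, as does that of Ephx1. That second motif was present in 7.33% of all promoters. Each sequence runs 5′ to 3′ on the gene's own strand, with the match in capitals, and reads GCNNNGTCA where the element lies on the opposite strand. The positions in GRCr8 are chr7:22755954-22756002 (minus strand) for Txnrd1, chr1:213532000-213532048 (minus) for Prdx5, chr6:101230018-101230066 (minus) for Gpx2, chr2:213031943-213031991 (plus) for Gclm, chr5:135383751-135383799 (plus) for Prdx1 and chr1:210769738-210769786 (minus) for Gstp1.
Txnrd1: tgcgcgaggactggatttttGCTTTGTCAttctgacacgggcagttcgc
Prdx5: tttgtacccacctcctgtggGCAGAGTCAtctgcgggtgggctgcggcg
Gpx2: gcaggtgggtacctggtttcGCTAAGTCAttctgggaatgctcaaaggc
Gclm: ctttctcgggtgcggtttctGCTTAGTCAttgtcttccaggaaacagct
Prdx1: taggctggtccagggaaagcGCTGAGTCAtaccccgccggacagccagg
Gstp1: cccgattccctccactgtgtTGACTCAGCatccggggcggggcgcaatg
The match begins 78 bases before the start in Txnrd1, 1 base before it in Prdx5, 13 in Gpx2, 172 in Gclm, 135 in Prdx1 and 61 in Gstp1. A match of letters does not show that NRF2 binds there, and elements outside the 300 bases were not searched.

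Levels below are in CPM, counts rescaled to a shared library size that was adjusted by TMM, a method that takes most genes as unchanged. Libraries held 999209 to 3131541 counts, and a count of 3, taken as the detection floor, stood for 1.07 to 3.05 CPM. Deviations from the group means had a median correlation across genes of 0.48 for 2 libraries from 1 animal and of -0.17 for libraries from different animals, and each of the 20 was closest to a library of its own animal. As the deviations of a group sum to 0, the positive value brings negative ones with it, and the -0.17 adds nothing of its own. The type I markers Pdpn (mean 1830 CPM) and Ager (500 CPM) were present, while Aqp5 (3.03 CPM) and Rtkn2 (0.491 CPM) were at or near the floor. Lyz2 (4920 CPM) and Laptm5 (718 CPM), listed as macrophage and leukocyte markers, and Col1a1 (5490 CPM), listed as a fibroblast marker, were present in every library. Bulk RNA does not show which cells held these transcripts. In S vs NS 3 of 8 tested type I markers fell, 0 of 8 type II markers passed the test, 5 of 10 macrophage and leukocyte markers rose and 1 of 6 fibroblast and smooth muscle markers rose. Of all 8320 tested genes 12.5% rose and 12.4% fell there, so that the 1 of 6 (16.7%) is near that share. With inhibitor 5 type I markers fell and Cav1 rose, 0 type II markers passed, 6 macrophage and 3 fibroblast markers rose, where 15.2% of all tested genes rose and 15.3% fell. Animal 1 stood apart: its summed type I level changed with stretch by -1.11 on the log2 scale without and by -1.59 with inhibitor, and its type II level by -1.22 and -1.61. Its sum of the listed macrophage and leukocyte markers was the lowest in each group. Lyz2 alone made up 72.8% of that sum over the 20 libraries, so the sum mostly follows 1 gene. In bulk RNA, fewer cells of a type and less RNA per cell cannot be told apart.

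**Figure D1:**
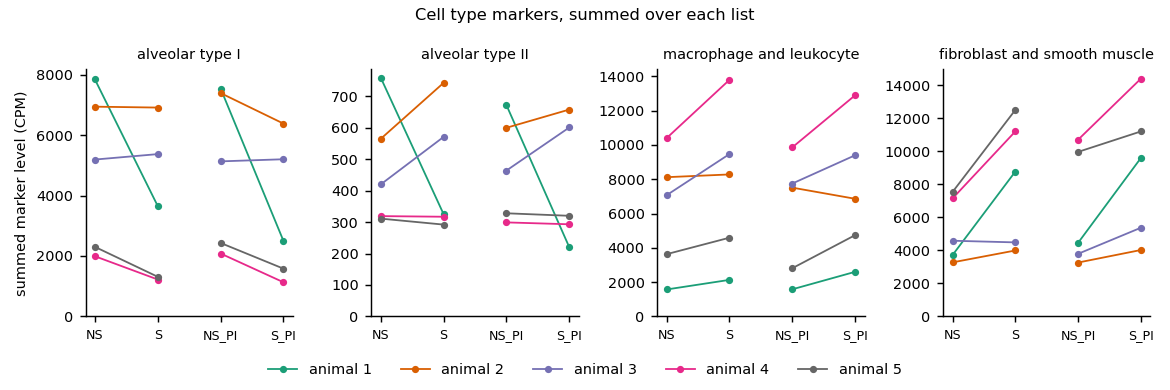
Summed level of 4 lists of cell type markers (y axis, CPM) in the groups NS, S, NS_PI and S_PI (x axis), with 1 line per animal joining unstretched to stretched cells. The macrophage and leukocyte sum, 72.8% of which is Lyz2, lies between 1570 and 13800 CPM and is higher after stretch in 5 of 5 animals (without inhibitor) and 4 of 5 (inhibitor present). The type I sum of animal 1 falls from 7840 to 3650 CPM without inhibitor.

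Stretch without inhibitor (S vs NS) raised 10 members and lowered 3. The 10 were Maff, Nqo1, Hmox1, Fth1, Gclc, Gpx1, Gstm1, Txnrd1, Prdx5 and Taldo1, and the 3 were Gsta4, Mgst1 and Prdx3. The 10 are 24.4% of the 41 tested members, where 12.5% of all tested genes were called higher, and the 3 are 7.32%, where 12.4% were called lower. Because the list was made with earlier results of these data known, such shares are description only. Calls are those of the edgeR quasi-likelihood F test with animal as a block, at a Benjamini-Hochberg adjusted p below 0.05 over all genes. The median log2 fold change was 0.10 over the members and -0.01 over all genes. The spread in this test pools all groups, so that a stretch response differing between animals enters it together with other scatter. Scaling by library size alone, 7 members rose and 3 fell, where 8.68% and 17.1% of all genes were called; Fth1, Gpx1 and Taldo1 then did not pass (adjusted p = 0.111, 0.0929 and 0.133).

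With the inhibitor present (S_PI vs NS_PI) stretch raised 11 members, namely Mafg, Maff, Sqstm1, Hmox1, Fth1, Gclc, Cth, Gstm1, Txnrd1, Srxn1 and Prdx5. It lowered 2, Gpx2 and Mgst1. These are 26.8% and 4.88% of the members, against 15.2% of all genes higher and 15.3% lower. The median was 0.09 over the members and -0.02 over all genes. Under the same scaling by library size the split became 9 higher and 4 lower, where 11.5% and 20.2% of all genes were called. Gstm1 and Sqstm1 then did not pass (adjusted p = 0.0982 and 0.0973), and Keap1 and Gsta4 joined the falls. That scaling moved the median of all genes to -0.12 in both stretch comparisons.

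The comparisons with and without inhibitor use different libraries of the same animals. The 7 members called higher in both were Maff, Gclc, Hmox1, Fth1, Txnrd1, Prdx5 and Gstm1, which is 7 of the 10 rises without inhibitor and 7 of the 11 with it. Over all genes, 752 of the 1044 rises without inhibitor (72%) and of the 1263 with it (59.5%) were shared, so these members are near that background. Mgst1 was lower in both. The sign was the same in 30 of 41 members, and in 6696 of all 8320 genes. Without the animal as a block, 3 members rose and 0 fell in S vs NS (5.04% and 4.8% of all genes), namely Maff, Gclc and Gstm1. In S_PI vs NS_PI 4 rose and 0 fell without it (7.73% and 7.04% of all genes), namely Mafg, Maff, Gclc and Txnrd1.

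**Figure D2:**
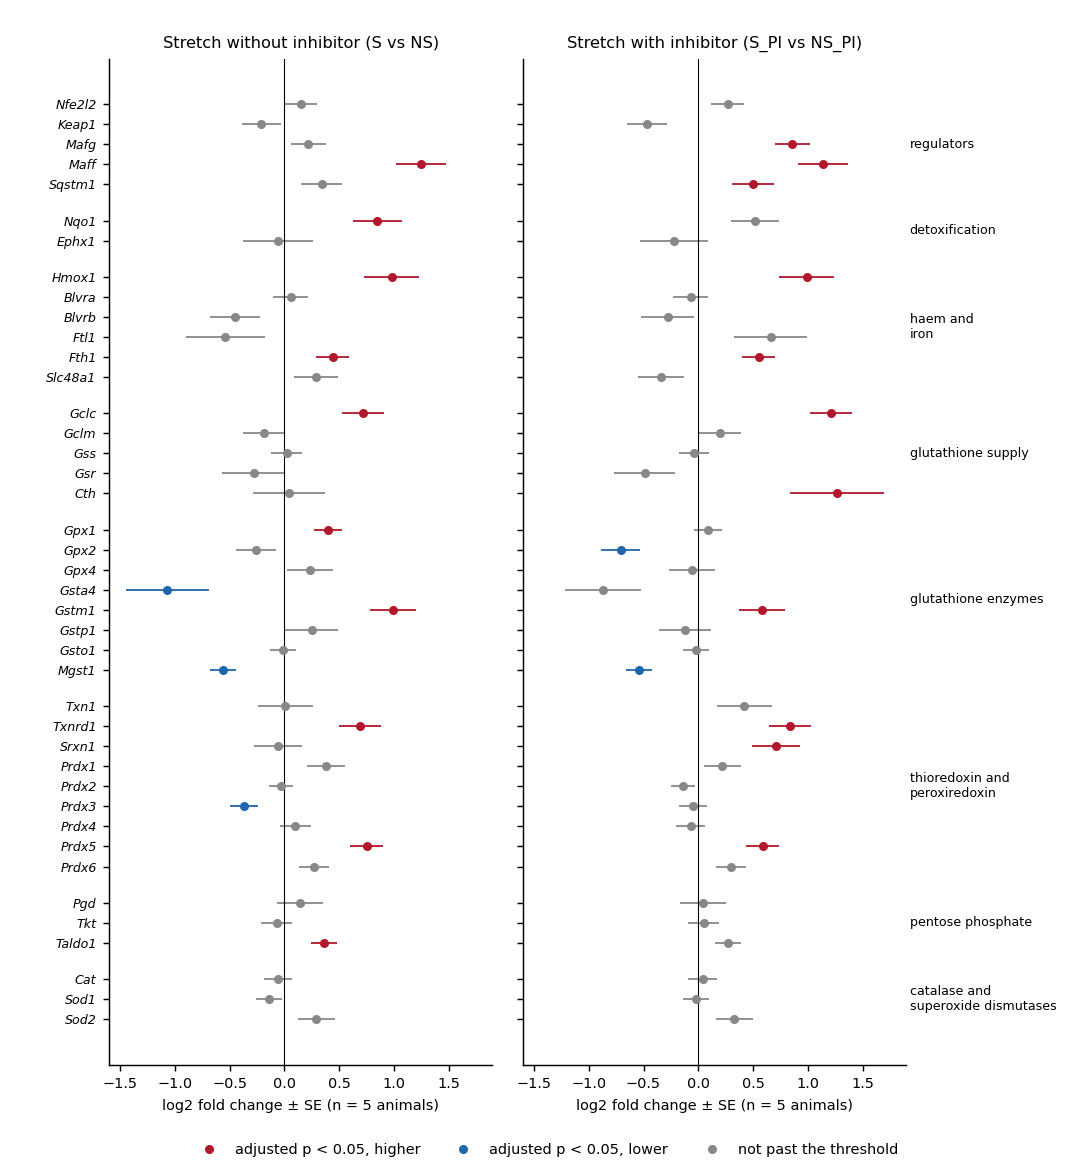
Log2 fold change with stretch (x axis, ± SE, 5 animals per group) of the 41 tested members, grouped by role, without inhibitor on the left and with it on the right. Red marks members higher and blue members lower at an adjusted p below 0.05; Maff, Gclc and Hmox1 lie to the right of 0 in both panels and Mgst1 to the left.

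Among the 5 regulators, the small MAF gene Maff rose in both comparisons while Nfe2l2 itself passed the test in neither. Maff, whose product is a partner of NRF2 on DNA, stood at 20.3, 34, 53.3, 50.1 and 45.6 CPM in unstretched animals 1 to 5 and at 85, 121, 109, 86.4 and 66.3 CPM after stretch. Every stretched library was above every unstretched one. The log2 fold change was 1.25 ± 0.23 (SE, n = 5, edgeR adjusted p = 0.000541). With inhibitor Maff rose from 29.8, 26.3, 35.9, 48.8 and 52.7 CPM to 55, 119, 111, 81.6 and 64.1 CPM, and again the groups did not overlap (1.14 ± 0.23, adjusted p = 0.000847).

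Mafg, a second small MAF gene, went from 173, 187, 173, 207 and 141 CPM in NS_PI to 340, 404, 256, 314 and 283 CPM in S_PI, with no overlap and a log2 fold change of 0.86 ± 0.16 (edgeR adjusted p = 0.000344). Without inhibitor it stood at 167 to 257 CPM before and 160 to 278 CPM after stretch, with 3 of 5 animals higher (0.22 ± 0.16, adjusted p = 0.324). Whether the rise differed between the inhibitor states is tested further on. Nfe2l2 stood at 213, 255, 205, 158 and 136 CPM in NS and at 325, 186, 196, 159 and 204 CPM in S. The library of animal 1 was the high one in S, and the groups overlapped. Its log2 fold change was 0.15 ± 0.15 (adjusted p = 0.5) without and 0.27 ± 0.15 (adjusted p = 0.186) with inhibitor. Sqstm1 encodes p62, which binds KEAP1 and leads it to autophagy. It rose with inhibitor (0.50 ± 0.19, adjusted p = 0.0467), though not when animal 2, 3, 4 or 5 was left out (adjusted p = 0.118 to 0.175), and measured 0.34 ± 0.19 without inhibitor (adjusted p = 0.184). Keap1 measured -0.21 ± 0.18 without inhibitor (adjusted p = 0.425) and -0.47 ± 0.18 with it. In the latter its adjusted p of 0.0525 narrowly failed the threshold (0.039 without animal 4 and 0.0232 when scaled by library size alone).

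The group of detoxification genes held 1 rise. Nqo1, a quinone reductase and the textbook NRF2 target, stood at 326, 804, 528, 302 and 391 CPM in NS and at 1160, 834, 720, 544 and 757 CPM in S. All 5 animals were higher after stretch, animal 1 most and animal 2 least, and the groups overlapped (0.85 ± 0.22, edgeR adjusted p = 0.00814). With inhibitor it went from 398, 1040, 686, 277 and 438 to 774, 790, 684, 554 and 943 CPM. There 3 of 5 animals were higher (0.52 ± 0.22, adjusted p = 0.0742), and without animal 2, whose unstretched library was the highest, the adjusted p was 0.0127. Ephx1, an epoxide hydrolase, measured -0.06 ± 0.32 and -0.22 ± 0.31 and passed in neither. Cbr1, a carbonyl reductase, was not tested, with 2, 2, 0 and 2 counts in all of NS, S, NS_PI and S_PI.

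Of the 6 haem and iron genes, Hmox1 and Fth1 rose in both comparisons and none fell. Hmox1, the enzyme that opens the haem ring, stood at 503, 613, 1620, 1270 and 858 CPM in NS and at 551, 2570, 2460, 2780 and 1420 CPM in S. It was higher in 5 of 5 animals, with animal 1 nearly level, and the groups overlapped. The log2 fold change was 0.98 ± 0.25 (edgeR adjusted p = 0.00723), and without animal 2 it was 0.71, which no longer passed (adjusted p = 0.0521). With inhibitor Hmox1 rose from 913, 776, 1400, 854 and 952 to 1260, 2150, 2220, 2960 and 1630 CPM, again in 5 of 5 animals (0.99 ± 0.25, adjusted p = 0.00523). Fth1, the ferritin heavy chain that oxidises and stores the freed iron, rose by 0.44 ± 0.15 without (adjusted p = 0.0335) and 0.55 ± 0.15 with inhibitor (adjusted p = 0.00739). Its group means were 3860 ± 806 CPM (SD) in NS and 5450 ± 2130 CPM in S, and 3760 ± 1010 CPM in NS_PI and 5510 ± 1360 CPM in S_PI. The call without inhibitor did not pass without animal 2, 3, 4 or 5 (adjusted p = 0.0569 to 0.2), and that with inhibitor not without animal 5 (0.0553).

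Ftl1, the ferritin light chain, was counted at only 6.46 to 51.3 CPM and passed in neither comparison (-0.54 ± 0.36 and 0.66 ± 0.33). Ferritin genes have near-identical processed copies in the genome, and records that aligned to several places made up 35.5 to 57.7% of all records, so the counts of both ferritin genes are uncertain. Blvra and Blvrb, the biliverdin reductases that act after Hmox1, measured 0.06 ± 0.16 and -0.45 ± 0.23 without and -0.07 ± 0.16 and -0.28 ± 0.24 with inhibitor. Slc48a1, a haem transporter, measured 0.29 ± 0.20 and -0.34 ± 0.21. None of these passed the test. Hmox1 and Fth1 are also strongly expressed by macrophages, and the summed level of the macrophage and leukocyte markers rose beside them by 0.33 ± 0.17 (mean log2 ratio ± SD, 5 of 5 animals) without and 0.40 ± 0.36 (4 of 5) with inhibitor. Over the libraries this sum ran from 1570 to 10400 CPM in NS and from 2130 to 13800 CPM in S, and from 1580 to 9860 in NS_PI and from 2600 to 12900 in S_PI. Lyz2 made up 72.8% of it and itself passed in neither comparison (0.15 ± 0.15, edgeR adjusted p = 0.475, and 0.36 ± 0.15, adjusted p = 0.07). All 12 markers of the sum were in the table, Marco (0.0309 CPM) and Itgam (1.02 CPM) at or near 0. The part of this sum in the rise of Hmox1 and Fth1 was not tested.

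**Figure D3:**
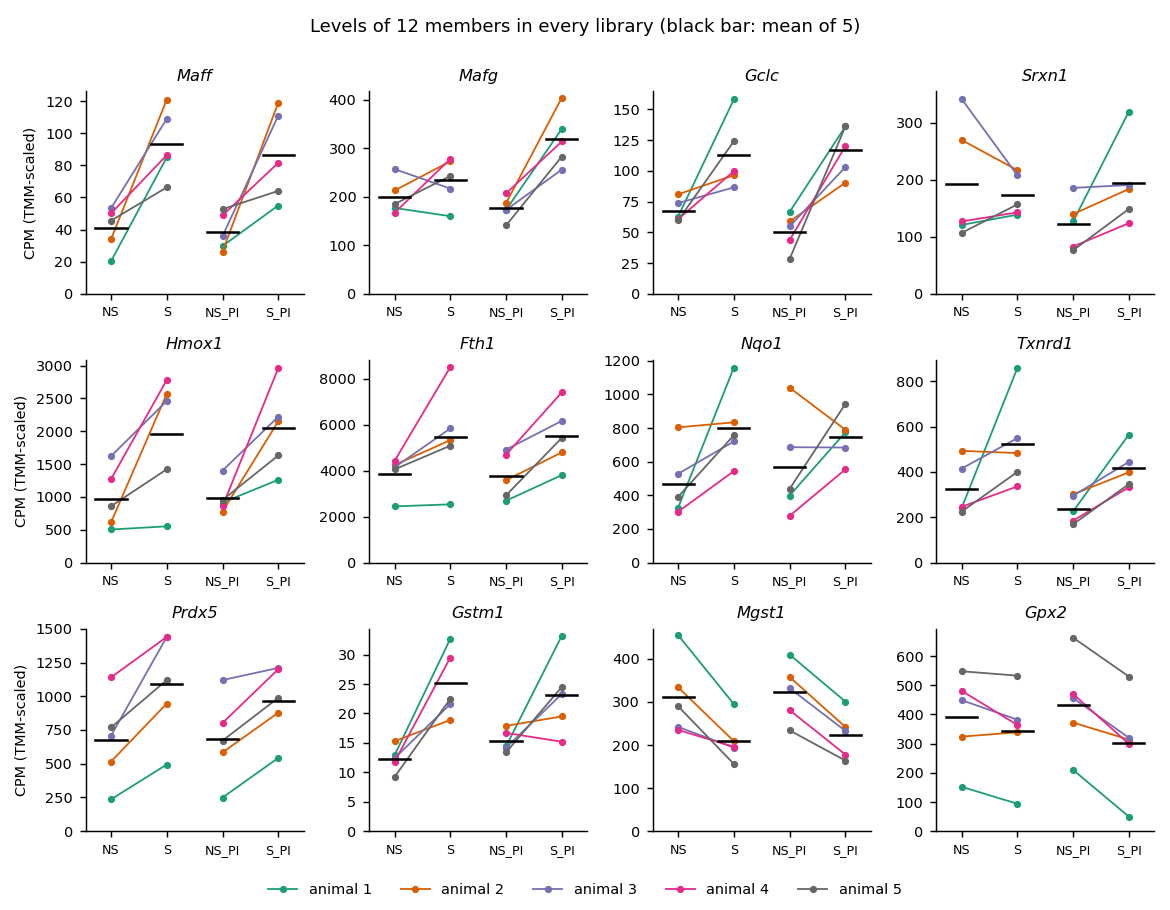
Levels of 12 members (y axis, CPM, from 0) in NS, S, NS_PI and S_PI (x axis), 1 line per animal and a black bar for the mean of 5. Maff and Gclc are higher in every stretched library than in every unstretched one of the same inhibitor state, and Mgst1 is lower after stretch in each animal.

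Among the genes of glutathione supply, RNA of the rate-limiting one rose in both comparisons, and glutathione itself was not measured. Gclc, the catalytic subunit of glutamate-cysteine ligase, stood at 62.8, 80.9, 73.8, 60.7 and 59.7 CPM in NS and at 158, 96.4, 86.5, 99.7 and 124 CPM in S. No library of one group reached into the other (0.72 ± 0.19, edgeR adjusted p = 0.00829). With inhibitor it rose from 66.5, 58.8, 54.8, 43.7 and 28.2 to 136, 90.3, 103, 120 and 136 CPM, also without overlap (1.21 ± 0.19, adjusted p = 9.44e-05). Gclm, the modifier subunit of the same ligase, did not pass. It stood at 47.7 to 82.4 CPM in NS and 34.1 to 64.9 CPM in S (-0.19 ± 0.19, adjusted p = 0.487), and at 37.6 to 72.6 and 48.8 to 69.5 CPM with inhibitor (0.20 ± 0.19, adjusted p = 0.444).

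Gss, the synthetase of the next step, measured 0.02 ± 0.14 (-0.09 with library size as the only scaling) and -0.04 ± 0.14. Gsr, which reduces oxidised glutathione, measured -0.28 ± 0.29 and -0.49 ± 0.28, at 7.08 to 25.1 CPM over all libraries. Neither passed the test. Cth, which makes cysteine from cystathionine, was low, at 4.65, 1.67, 2.11, 4.64 and 5.2 CPM in NS_PI and 4.01, 6.71, 9.33, 19.1 and 7.5 CPM in S_PI. Animals 2 to 5 were higher after stretch and animal 1 was not (1.27 ± 0.43, edgeR adjusted p = 0.027), several of the NS_PI values lay near the detection floor, and without animal 2, 3 or 4 it did not pass (adjusted p = 0.0882 to 0.185). Without inhibitor Cth measured 0.04 ± 0.33 (-0.05 with library size as the only scaling). Abcc1, an exporter of glutathione conjugates, was not tested, with group means of 4.11 ± 1.41, 2.98 ± 1.56, 3.94 ± 0.798 and 3.87 ± 1.7 CPM in NS, S, NS_PI and S_PI. Cbs, the enzyme before Cth, had 0 counts in all 20 libraries, which allows up to 1.07 to 3.05 CPM depending on the library.

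The glutathione-using enzymes moved in both directions. Gstm1, a glutathione transferase, stood at 12.9, 15.3, 12.4, 11.8 and 9.22 CPM in NS and at 32.7, 18.9, 21.6, 29.5 and 22.5 CPM in S. The groups did not overlap (0.99 ± 0.21, edgeR adjusted p = 0.00236). With inhibitor it rose in 4 of 5 animals (0.58 ± 0.21, adjusted p = 0.0397), a call that did not pass without animal 1, 3 or 5 (adjusted p = 0.121 to 0.193). Gpx1, the widely expressed glutathione peroxidase, rose without inhibitor (0.40 ± 0.13, adjusted p = 0.031), though not when animal 1, 2, 3 or 4 was left out (0.0536 to 0.101), and measured 0.09 ± 0.13 with it.

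Mgst1, a transferase of microsomal and mitochondrial membranes, fell from 455, 334, 242, 235 and 290 CPM in NS to 295, 209, 194, 196 and 156 CPM in S. It was lower in each of the 5 animals although the groups overlapped, and animal 1 was the highest in each group (-0.56 ± 0.12, edgeR adjusted p = 0.00264). With inhibitor it fell from 410, 358, 332, 281 and 234 to 301, 242, 233, 178 and 164 CPM (-0.54 ± 0.12, adjusted p = 0.00259). Gpx2, the peroxidase typical of epithelia, fell with inhibitor from 210, 372, 456, 470 and 663 to 49.8, 314, 320, 299 and 530 CPM. All 5 animals were lower, animal 1 most (-0.71 ± 0.18, adjusted p = 0.00626), and without inhibitor 4 of 5 were (-0.26 ± 0.18, adjusted p = 0.313). Gsta4, which conjugates the lipid peroxidation product 4-hydroxynonenal, was at 3.25 to 9.87 CPM in NS and 1.02 to 6.8 CPM in S, partly under the detection floor. It was lower in 5 of 5 animals in both comparisons, with -1.07 ± 0.38 (adjusted p = 0.0427) and -0.87 ± 0.35 (adjusted p = 0.0639), and the former did not pass without animal 1, 2, 4 or 5 (0.0697 to 0.153). Gpx4, Gstp1 and Gsto1 measured -0.12 to 0.25 over both comparisons and passed in neither. Beside these falls the summed type I markers changed by a mean of -0.52 ± 0.51 (SD) without and -0.66 ± 0.63 with inhibitor, lower in 4 of 5 animals each, over ranges of 1990 to 7840 CPM in NS, 1220 to 6910 in S, 2080 to 7540 in NS_PI and 1130 to 6380 in S_PI. The fibroblast and smooth muscle sum changed by 0.57 ± 0.48 and 0.50 ± 0.36. The part of either in the changes of these enzymes was not tested.

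In the thioredoxin and peroxiredoxin group Txnrd1 and Prdx5 rose in both comparisons. Txnrd1, the cytosolic reductase that recycles thioredoxin, stood at 241, 493, 415, 246 and 225 CPM in NS and at 859, 483, 549, 336 and 400 CPM in S. Animal 2 was level and the other 4 were higher (0.69 ± 0.19, edgeR adjusted p = 0.0106). With inhibitor it rose from 226, 301, 295, 185 and 169 to 565, 398, 444, 332 and 346 CPM with no overlap (0.84 ± 0.19, adjusted p = 0.00211). Prdx5, a peroxiredoxin of mitochondria, peroxisomes and cytosol, stood at 236, 516, 708, 1140 and 769 CPM in NS and 494, 946, 1440, 1440 and 1120 CPM in S. It was higher in each of the 5 animals over differences between animals that were larger than the change itself (0.75 ± 0.15, adjusted p = 0.00149), and likewise with inhibitor (0.59 ± 0.15, adjusted p = 0.00619). Without the animal block the Prdx5 calls were not made (adjusted p = 0.28 and 0.427).

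Srxn1, sulfiredoxin, which repairs overoxidised peroxiredoxins, rose with inhibitor from 127, 140, 186, 83.1 and 76.5 to 320, 184, 191, 124 and 149 CPM. All 5 animals were higher, animal 3 barely (0.71 ± 0.22, edgeR adjusted p = 0.0192), and it did not pass without animal 4 (0.0571) or 5 (0.0752). Without inhibitor it stood at 121, 270, 342, 127 and 107 CPM in NS and at 139, 217, 208, 143 and 157 CPM in S. There 3 animals were higher and 2 lower (-0.06 ± 0.22, adjusted p = 0.862). Prdx3, the mitochondrial peroxiredoxin, fell without inhibitor in 5 of 5 animals, from a mean of 90.7 ± 24.7 to 70.4 ± 17 CPM (-0.37 ± 0.13, adjusted p = 0.0394). That call did not pass when any of the 5 animals was left out (adjusted p = 0.0684 to 0.166), and with inhibitor Prdx3 measured -0.05 ± 0.13. Txn1, Prdx1, Prdx2, Prdx4 and Prdx6 passed in neither comparison, with log2 changes of -0.14 to 0.42. Prdx6, at 0.27 ± 0.14 (adjusted p = 0.145) and 0.30 ± 0.14 (0.102), was higher in 5 of 5 animals both times.

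Taldo1, the transaldolase of the pentose phosphate pathway, which supplies NADPH, rose without inhibitor from 632 ± 131 to 803 ± 133 CPM in 5 of 5 animals (0.36 ± 0.12, edgeR adjusted p = 0.0384). It did not pass when any of the 5 animals was left out (0.0522 to 0.149), and measured 0.27 ± 0.12 with inhibitor (adjusted p = 0.111). Pgd and Tkt, the other 2 members of that pathway, measured -0.07 to 0.14. Cat, Sod1 and Sod2, catalase and the dismutases of cytosol and mitochondria, passed in neither comparison, with -0.06 ± 0.13, -0.14 ± 0.12 and 0.29 ± 0.17 without and 0.04 ± 0.13, -0.02 ± 0.12 and 0.33 ± 0.17 with inhibitor.

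Groups that did not overlap were thus found for 3 members in S vs NS (Maff, Gclc, Gstm1) and 4 in S_PI vs NS_PI (Mafg, Maff, Gclc, Txnrd1). Of all 8320 genes 3.45% and 7.16% had a higher range without overlap in these comparisons, and 12.5% and 15.2% were called higher. Of the rises without inhibitor, those of Maff, Gclc, Gstm1, Nqo1, Txnrd1 and Prdx5 passed under every alternative that had the animal block. With inhibitor the same held for Mafg, Maff, Gclc, Txnrd1, Hmox1 and Prdx5. Among the falls it held for Mgst1 in both comparisons and for Gpx2 with inhibitor. Leaving out animal 2 reduced the rises in S vs NS to 6, and leaving out animal 5 those in S_PI vs NS_PI to 7. Calls over all genes, in both directions together, dropped too, from 2075 to 1418 and from 2534 to 1839. The falls in S vs NS were 1 without animal 1, 2, 4 or 5. Without animal 1, which stood apart in its cell type markers, 10 members rose and 1 fell without inhibitor, and 11 rose and 3 fell with it. Over all genes 1784 of 8230 and 2453 of 8230 were then called in either direction.

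The calls were also counted by the promoter match. Of 11 tested members with a match, Txnrd1 and Prdx5 rose and 0 fell in S vs NS, and of 24 with a promoter but no match 6 rose and 3 fell. With inhibitor 2 rose and 1 fell (Gpx2) among the 11, and 7 rose and 1 fell among the 24. Over all 1011 tested genes with a match 13.7% rose and 12.7% fell without inhibitor, and over the 5393 without a match 12.6% and 11.8%. With inhibitor the shares were 16.7% and 14.1% with a match and 14.8% and 15% without. Counts of 2 among 11 are too few to set the members apart from these shares. Hmox1, Ftl1, Fth1, Slc48a1, Gsr and Prdx6 had no entry.

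The inhibitor comparisons asked whether PERK inhibition changes these genes at rest (NS_PI vs NS), under strain (S_PI vs S), or in their response to strain (the interaction, which is the log2 change with inhibitor minus that without). No gene of the 8320 was called by the edgeR quasi-likelihood F test in any of the 3, so 0% were called higher and 0% lower. Before adjustment 4, 3 and 5 of 41 members had a p below 0.05, where 455 (5.47%), 340 (4.09%) and 345 (4.15%) of all genes did. DESeq2 called 0 genes in S_PI vs S and in the interaction, and 5 in NS_PI vs NS, all lower (0.0601% of all genes). The 2 inhibitor comparisons and the interaction share libraries with the stretch comparisons, and their values are given side by side only.

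Cth was the member among those 5. It stood at 2.31, 11.3, 19.2, 20 and 15.7 CPM in NS and at 4.65, 1.67, 2.11, 4.64 and 5.2 CPM in NS_PI. Animals 2 to 5 were lower with inhibitor and animal 1, low in both, was higher. The log2 fold change was -1.81 ± 0.40 with an adjusted p of 0.275 in edgeR, and 0.0251 in DESeq2. The adjusted p was 0.023 with no filter on low counts, where 4 genes of the table passed, and 0.00275 without animal 1, where the change was -2.35. Over all alternatives it ran from 0.00275 to 1. In stretched cells Cth measured -0.59 ± 0.36 (adjusted p = 0.999), and its interaction was 1.22 ± 0.54 (unadjusted p = 0.0321, adjusted p = 0.984).

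The other members with an unadjusted p below 0.05 in NS_PI vs NS were Gclc (-0.43 ± 0.19), Txnrd1 (-0.45 ± 0.19) and Srxn1 (-0.62 ± 0.22), none past adjustment in edgeR (adjusted p = 0.9, 0.876 and 0.866). Txnrd1 was lower with inhibitor in 5 of 5 animals at rest and in 5 of 5 under strain, where it measured -0.30 ± 0.18. In S_PI vs S they were Mafg (0.46 ± 0.15, higher in 5 of 5), Ftl1 (1.15 ± 0.35, higher in 5 of 5) and Slc48a1 (-0.47 ± 0.21), all at an adjusted p of 0.999. Mafg, Srxn1 and Ftl1 had the smallest p of the interaction. Mafg had 0.64 ± 0.22 (unadjusted p = 0.0077), with 4 of 5 animals responding more to strain under the inhibitor. Srxn1 had 0.78 ± 0.31 (0.0214) with 5 of 5, and Ftl1 1.20 ± 0.49 (0.023) with 4 of 5. Slc48a1 went the other way, with -0.63 ± 0.29 (0.041), lower in 5 of 5 animals. All had an edgeR adjusted p of 0.984. The calls of Mafg, Srxn1 and Cth with inhibitor and their lack without it are therefore not shown to differ.

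The remaining regulators and classic targets had the following log2 differences. Nfe2l2 measured -0.22 ± 0.15 at rest, -0.10 ± 0.15 under strain and 0.12 ± 0.21 in the interaction. Nqo1 measured 0.23 ± 0.22, -0.09 ± 0.22 and -0.33 ± 0.31, and Hmox1 0.14 ± 0.25, 0.15 ± 0.25 and 0.00 ± 0.35. Gclm, the modifier subunit, measured -0.22 ± 0.18, 0.17 ± 0.19 and 0.39 ± 0.26. Gclc measured 0.07 ± 0.18 under strain and 0.49 ± 0.26 in the interaction (unadjusted p = 0.0753), and the interaction of Txnrd1 was 0.15 ± 0.26. Keap1 measured 0.11 ± 0.17, -0.15 ± 0.19 and -0.26 ± 0.26 in the 3 comparisons, Gss -0.02 ± 0.14, -0.09 ± 0.14 and -0.06 ± 0.20, and Gsr 0.35 ± 0.27, 0.15 ± 0.30 and -0.21 ± 0.41. Mafg at rest was at -0.19 ± 0.16 and Srxn1 under strain at 0.16 ± 0.22. None of these members passed the test. The median SE was 0.18 for the inhibitor comparisons and 0.26 for the interaction. Differences far larger than these were not called either: -1.81 ± 0.40 for Cth at rest, 1.15 ± 0.35 for Ftl1 under strain and 1.22 ± 0.54 for Cth in the interaction. These low-count genes had SEs above the median. The lack of calls with 5 animals therefore does not exclude inhibitor effects, and the size that could be missed depends on the SE of each member.

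Other genes of the same pathways, 69 in a list chosen by function with earlier results known, were measured beside the members, and 53 of the 68 in the table were tested. In S vs NS 12 rose and 6 fell (22.6% and 11.3% of the 53, beside 12.5% and 12.4% of all genes), and in S_PI vs NS_PI 11 rose and 9 fell (20.8% and 17%, beside 15.2% and 15.3%). The shares of falls were thus near those of all genes. Mafk, the remaining small MAF gene, stood at 33.7 to 48.8 CPM in NS and 72.1 to 155 CPM in S, with no overlap (1.33 ± 0.18, edgeR adjusted p = 4.68e-05). With inhibitor it rose from 32.1 to 44.1 CPM to 63.6 to 149 CPM (1.25 ± 0.18, adjusted p = 5.37e-05). All 3 small MAF genes thus rose with inhibitor, and Maff and Mafk without it.

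Slc7a11 and Slc3a2 encode the light and heavy chain of the cystine importer that feeds glutathione synthesis. Slc7a11 stood at 23.7, 56.3, 54.3, 56.2 and 39.4 CPM in NS_PI and at 96.3, 97, 101, 156 and 178 CPM in S_PI, with every stretched library higher (1.49 ± 0.24, edgeR adjusted p = 0.000101). Without inhibitor it stood at 26.3, 111, 139, 89 and 92.2 CPM in NS and 54.8, 125, 90.8, 148 and 140 CPM in S (0.33 ± 0.23, adjusted p = 0.297). At rest it was lower with inhibitor in 5 of 5 animals (-0.93 ± 0.23, adjusted p = 0.379), and its interaction was 1.16 ± 0.32 (5 of 5 animals, unadjusted p = 0.00169, adjusted p = 0.984). Slc3a2 rose by 0.79 ± 0.21 (adjusted p = 0.0101) without and 1.22 ± 0.21 (0.000268) with inhibitor. Chac1, which breaks glutathione down, rose with inhibitor (1.68 ± 0.29, adjusted p = 0.000257) and measured 0.65 ± 0.29 (0.101) without it.

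Akr1b8, an aldo-keto reductase, and Cul3, the ligase scaffold that KEAP1 uses, rose with inhibitor by 1.43 ± 0.23 (edgeR adjusted p = 0.000123) and 0.74 ± 0.12 (0.00015). Without it Cul3 rose by 0.37 ± 0.12 (0.0305) and Akr1b8 measured 0.61 ± 0.24 (0.0661). Osgin1, an oxidant-induced growth inhibitor, rose by 0.77 ± 0.20 (0.00955) without and 0.75 ± 0.21 (0.0106) with inhibitor. The sestrin genes Sesn1 and Sesn3 fell without inhibitor by 0.81 ± 0.21 (0.00746) and 0.83 ± 0.17 (0.0017), while Sesn2 rose by 0.59 ± 0.19 (0.0298). Rpe, the ribulose phosphate epimerase, fell by 0.54 ± 0.14 (0.00794). The values with inhibitor were -0.62 ± 0.21 (0.0254) for Sesn1, -0.86 ± 0.17 (0.000843) for Sesn3, 0.46 ± 0.19 (0.0774) for Sesn2 and -0.56 ± 0.14 (0.00537) for Rpe. Bach1, the repressor that competes with NRF2 for the same elements, averaged 2.75 counts per library and was not tested.

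The spread of these genes over the libraries was divided between animal and treatment. In a balanced decomposition of log2 CPM over the 20 libraries the animal held the largest share among animal, stretch, inhibitor and interaction in 33 of 41 members, stretch in 7 (Mafg, Maff, Hmox1, Gclc, Gsr, Gstm1 and Txnrd1) and the interaction in 1 (Slc48a1). The animal's share rests on 4 degrees of freedom and each of the others on 1, so the shares are not on an equal footing. Per degree of freedom the animal was largest in 21 members, stretch in 15, the inhibitor in 2 (Ftl1 and Cth) and the interaction in 3. The 15 were the 7 above with Keap1, Nqo1, Blvrb, Fth1, Gsta4, Mgst1, Prdx5 and Taldo1. The residual was left out of these rankings. It exceeded every named share in some members, among them Gsr (67.6%, with 16.5% for stretch) and Slc48a1 (62.1%, with 22.7% for the interaction). The median shares were 48.1% for the animal, 8.18% for stretch, 1.17% for the inhibitor and 23.5% for the residual. Over all genes they were 37.5%, 13.1%, 1.22% and 31.4%. Stretch held 67.1% in Maff, 67% in Gclc and 62.6% in Gstm1. Blvra lay at the other end, with 90.1% for the animal and 0.04% for stretch. Its mean over the 4 libraries of an animal was 34.9, 17, 49.7, 26.5 and 35.1 CPM in animals 1 to 5.

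**Figure D4:**
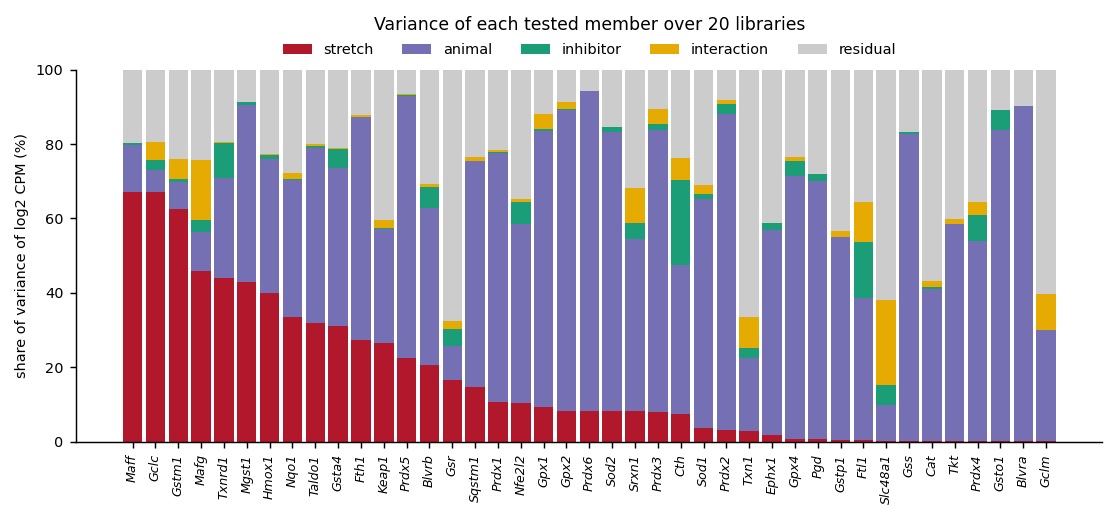
Share of the variance of log2 CPM over the 20 libraries (y axis, percent) held by stretch, animal, inhibitor, their interaction and the residual, as stacked bars for the 41 tested members sorted by the share of stretch (x axis). Maff and Gclc stand at the left with 67.1% and 67% for stretch, and the animal's share, which rests on 4 degrees of freedom against 1 for each treatment, is the largest named share in 33 members.

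**Figure D5:**
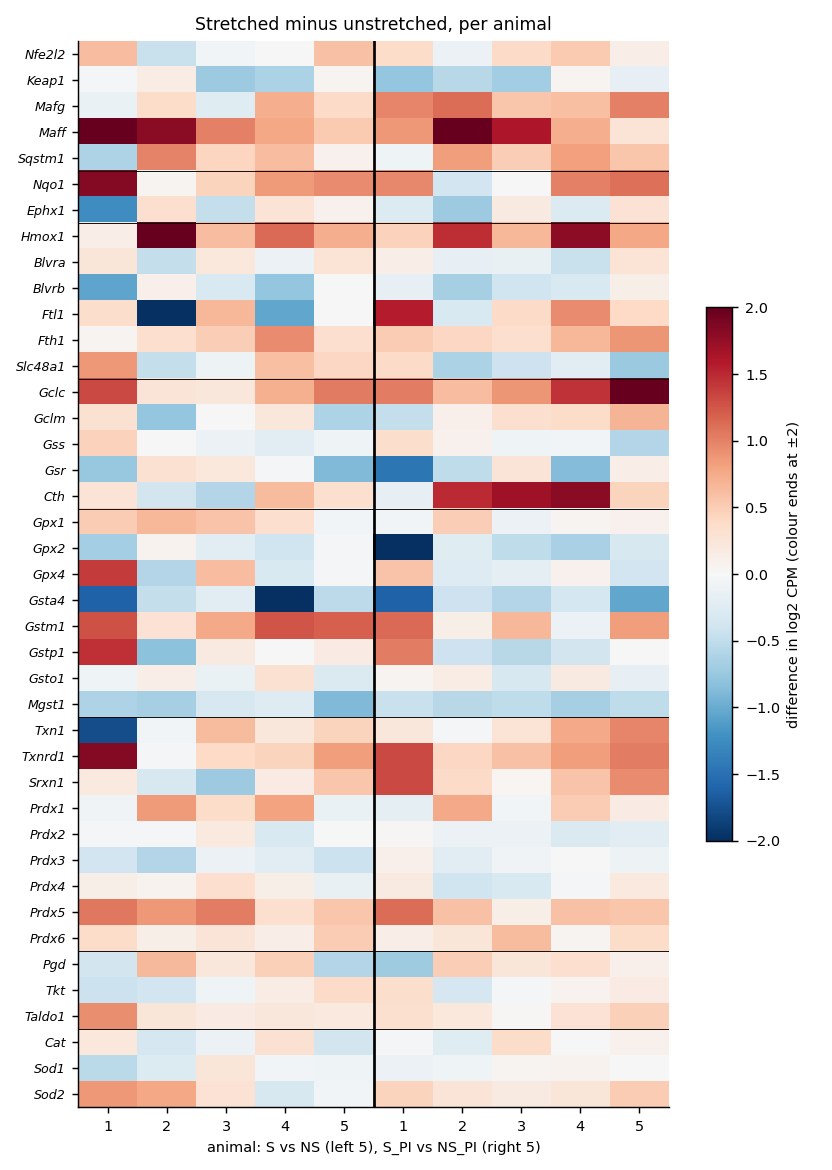
Stretched minus unstretched log2 CPM of the 41 tested members (rows, ordered by role) in each of 5 animals without (left 5 columns) and with inhibitor (right 5 columns) on a colour scale from blue (lower) to red (higher). The rows of Maff, Hmox1 and Gclc are red and that of Mgst1 blue in all 10 columns, while Gclm and Gss change colour between animals.

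The authors' deposited table of a DESeq2 comparison, whose header names no groups, held 956 of 8905 rows with an adjusted p below 0.05 (10.7%). Among 41 members with a single row in the authors' deposited table, those that passed were 8: Maff, Gclc, Gstm1, Hmox1, Nqo1, Prdx5, Txnrd1 and Mgst1. All 8 were also called in S vs NS from the counts, each with the opposite sign to that deposited, as were all 922 genes called in both. The deposited values were therefore read as unstretched relative to stretched. With the sign reversed they were 1.14 for Maff and 0.75 for Prdx5, beside 1.25 and 0.75 here. Both rest on the same counts, so the likeness is no independent support. Other members called in S vs NS here did not pass in the deposited DESeq2 comparison. They were Fth1 (adjusted p = 0.0693), Gpx1 (0.0882), Taldo1 (0.172), Gsta4 (0.23) and Prdx3 (0.31).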

How the data were processed

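QuantSeq libraries of 20 samples hold 1 fragment per transcript, read near its 3' end, per the labels' protocols, so levels do not scale with transcript length. Per the submitters' processing notes, STAR, HTSeq and the build rn6 were used, with versions and gene annotation not given in the sources used here. Raw counts were deposited by the authors for 17337 symbols. The HTSeq summary entries were left out of library totals; records with no feature made up 16.2 to 24.5% and those not aligned uniquely 35.5 to 57.7% of all records. A second deposited table comes from DESeq2. Per the file headers it gives a mean normalized count (a signal), the log2 fold change and its error, the Wald score, and the p-value before and after adjustment.

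Genes that passed filterByExpr for the 4 groups were TMM-scaled and tested in edgeR 4.0.16 (quasi-likelihood F test, R 4.3.3, limma 3.58.1) with group and animal in 1 fit of all 20 libraries, leaving 12 residual degrees of freedom. SE is the contrast divided by the square root of F. The labels tie each library to 1 animal without numbering the animals. The replicate number was used as the animal and as a block, since the deposited table is named as controlling for rat and same-numbered libraries correlated at 0.32 or above in all 30 pairs. Alternatives were no block, DESeq2 1.42.0, library size as the only scaling, no filter, and leaving out each animal. The test was also run on simulated counts. These held no differences between animals and changed only genes of higher level, so they do not check the animal block or genes near the floor. Figures were drawn with matplotlib 3.10.9 in Python 3.11.15.

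The members and all gene lists were chosen with earlier results of these data known. Named with values were members past the threshold, a set list of regulators and classic targets in every comparison, the 3 with the smallest interaction p, members not tested, and the 6 listed pathway genes with the smallest adjusted p in each stretch comparison. Sesn2 was added beside the other sestrins. Maff, a member, was taken out of that second list. Floors cover counting error only, and the labels name no sequencing batch. Promoters and their positions come from RefSeq (GRCr8), another build than the counts.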

Additional observations from a re-analysis of the deposited data

Results flagged for a closer look

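In 10 of 164 groups of 5 libraries (41 members in 4 groups) the highest or lowest library lay apart from the others by more than Dixon's critical value of 0.71, where chance flags about 1 in 20 groups. Of the 10, 6 were libraries of animal 1, 2 of animal 2 and 2 of animal 3.

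Animal 1 held the highest level of Nfe2l2 in S (325 CPM, the others 159 to 204), of Gss in S (116 CPM, 48.9 to 63) and of Gstp1 in S (1040 CPM, 169 to 378). It also held the highest Sod1 in NS (946 CPM, 642 to 692) and in NS_PI (967 CPM, 595 to 675), and the lowest Fth1 in NS (2440 CPM, 4050 to 4420). Of these 5 genes Fth1 alone passed the test in a stretch comparison.

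In animal 2 the unstretched control library was the highest for Slc48a1 (35 CPM, 26.5 to 28.2) and Cat (163 CPM, 116 to 121). In animal 3 Hmox1 was the highest in NS_PI (1400 CPM, 776 to 952) and Ftl1 in S (40.2 CPM, 7.85 to 13.5).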

How the results depend on the processing

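Of 693 recomputed values of the members named in a comparison (not of all 41 in each), 600 kept their direction and side of the threshold, 63 kept the direction and no longer passed, 7 came to pass and 23 changed sign, all 23 of members that had not passed. Outside these, Prdx1 and Sqstm1 came to pass in S vs NS and Slc48a1 and Txn1 in S_PI vs NS_PI without animal 1, Ftl1 in S_PI vs NS_PI without animal 2, and Gsta4 there with library size as the only scaling. DESeq2, as run here on all 20 libraries, called the same 13 members as edgeR in each stretch comparison, unlike the authors' deposited comparison. Without the replicate block for the animal, rises and falls were 3 and 0 in S vs NS and 4 and 0 in S_PI vs NS_PI; the cause was not tested, but that fit leaves the differences between animals in the residual spread. Library size as the only scaling gave 7 rises in S vs NS and 9 rises and 4 falls in S_PI vs NS_PI. In NS_PI vs NS 1 member (Cth) fell with DESeq2 and with no filter. Leaving out 1 animal in turn gave 6 to 10 rises and 1 to 2 falls in S vs NS, 7 to 11 rises in S_PI vs NS_PI, and 0 to 1 falls in NS_PI vs NS. Calls over all genes were then 1418 to 1784 in S vs NS and 1839 to 2453 in S_PI vs NS_PI, where the main fit had 2075 and 2534.

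Signs changed with library size as the only scaling for Gss (-0.09) and Cth (-0.05) in S vs NS, and for Hmox1 in the interaction with DESeq2 (-0.01) and no filter (-0.02). Leaving out 1 animal in turn changed other signs, all of small values. In S vs NS the log2 changes then ran from -0.31 to 0.01 for Gclm, -0.09 to 0.08 for Gss, -0.15 to 0.26 for Cth and -0.19 to 0.15 for Srxn1. In S_PI vs NS_PI Gss ran from -0.15 to 0.09. In NS_PI vs NS they ran from -0.07 to 0.30 for Hmox1 and -0.09 to 0.03 for Gss. In S_PI vs S they ran from -0.21 to 0.06 for Nqo1, -0.05 to 0.29 for Hmox1, -0.04 to 0.29 for Gclm, -0.07 to 0.40 for Gsr and -0.17 to 0.26 for Srxn1. The interaction ran from -0.13 to 0.16 for Hmox1 and -0.13 to 0.02 for Gss. Library totals of 999209 to 3131541 counts limit Cth, Gsta4, Ephx1 and Abcc1, whose lowest libraries lay at or near the floor of 3 counts.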
